A study of Arabidopsis thaliana with 24 samples.

Results

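Shoots and roots of Arabidopsis thaliana were compared over a whole treatment series: all 12 shoot arrays were set against all 12 root arrays, time by time, so that all 24 arrays of the series entered the comparison. The plants were of the accession Col-0, were 16 days old and stood on rafts in Murashige and Skoog medium under days of 16 hours of light. At 3 h of light the medium received 1.5 µg/ml bleomycin, which breaks DNA strands, and 22 µg/ml mitomycin, which crosslinks DNA. Samples carry the time labels 0.5, 1, 3, 6, 12 and 24 h, with 2 arrays for each organ at each time. Both organs received both drugs at every time, so each value below compares treated shoots with treated roots, and untreated plants were not analysed here. Whether both arrays of a group were made from different plants is not in the labels, so p-values measure the spread between these arrays, which may be technical.

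A shoot is built around leaf cells that hold chloroplasts, where the photosystems capture light, the Calvin cycle fixes carbon, and sucrose is made and loaded into the phloem. A root lives on that sucrose, takes up water and mineral ions, and meets soil microbes at its surface. Roots are known for barrier layers stiffened with lignin and suberin, for secreted peroxidases and glycosidases, and for stores of defence compounds. The organ identity of a young plant rests on transcription factors such as the YABBY proteins of leaves and the PLETHORA and LBD proteins of roots.

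Each array gave a signal, a linear fluorescence intensity, for 22746 probe sets. Of these, 13436 could be assigned to a single annotated gene, which left 13286 genes with a value each, and 1535 of these have a symbol of their own. A gene is called measured below only if it is among these genes. Another 8730 probe sets are not in the annotation and could not be given a gene. The gene lists were built from listed loci, symbols and synonyms, so they can miss members of a family that the array holds. Differences are shoots minus roots on the log2(signal + 16) scale, averaged over the 6 times, with the standard error (SE) of the fit. The constant of 16 shrinks the differences of dim genes, so every fold given here understates the change of a gene that is dim in either organ. No detection calls were used, and a dim probe set cannot be told from background. Median signals were 35.96 to 39.9 on the shoot arrays and 45.2 to 47.8 on the root arrays, and the number of arrays sets the precision. Of the 12 shoot arrays, 12 h replicate 1 and 24 h replicate 2 lay nearest to the roots. Their mean correlations with the root arrays over probe sets were 0.714 and 0.711, against 0.678 to 0.692 for the other shoot arrays.

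Most genes differed between the organs. In limma's moderated test with Benjamini-Hochberg adjustment over all probe sets, 9758 genes, 73.4% of those measured, passed at an adjusted p under 0.05. Of these, 3454 (26.0%) were higher in shoots and 6304 (47.4%) were higher in roots. The median difference of all genes was -0.10, and the balance between directions depends on how the arrays are scaled to each other. Among probe sets 35.98% of the calls were higher in shoots as deposited, 47.4% after quantile normalization and 56.6% after centring each array on its median. The median over probe sets moved with the scaling, from -0.11 as deposited to -0.01 and 0.09, and small differences are to be read against that shift. At least 4-fold differences were found for 1107 genes (8.33%): 610 genes (4.59%) were higher in shoots and 497 (3.74%) in roots. Which organ had more of them depended on the constant: with 1 in place of 16, 1773 probe sets were at least 4-fold higher in shoots and 2018 in roots. In 605 of the 610 and in 492 of the 497, all 12 arrays of the high organ lay above all 12 of the other, which held for 11.4% of all genes in favour of shoots and 20.9% in favour of roots. At least 16-fold differences were found for 111 genes higher in shoots and 70 higher in roots. Without the 12 h replicate 1 and 24 h replicate 2 shoot arrays, 1271 probe sets were at least 4-fold higher in shoots and 993 in roots, against 1253 (5.51%) and 988 (4.34%) with them. In bulk organs, fewer cells of a type and less RNA per cell cannot be told apart.

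Of 60 genes listed as markers of organs and cell types, 8 had a value through the annotation used here. RCA of mesophyll, FMA of guard cells, TRY of trichomes and SWEET11 of phloem were higher in shoots, and PYK10 of roots and EXPA7 and EXPA18 of root hairs were higher in roots. CLV3 of the shoot meristem did not pass, and under median centring it passed at 0.18. No listed marker of the shoot epidermis, the endodermis, the root cap or the stele could be assigned a probe set. This does not show that the array lacks them, since many probe sets are not in the annotation.

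Large differences were dimmer on both sides in the root genes. The genes at least 4-fold higher in roots had a median root signal of 195.8 and a median shoot signal of 9.80 (medians over genes), and 330 of the 497 (66.4%) had a shoot median under 16. The genes at least 4-fold higher in shoots had medians of 368 in shoots and 27.7 in roots, and 199 of the 610 (32.6%) had a root median under 16.

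The gene with the largest difference in favour of shoots was AT1G23130, for which the annotation used here gives no symbol. Its signal was 1995, 2646 and 3613 in shoots (lowest, median and highest of 12 arrays) and 0.806, 1.82 and 28.4 in roots. The difference was 7.10 ± 0.11 (SE, n = 12 arrays an organ), a 138-fold change, with an adjusted p of 7.7e-20. ECS1, which encodes a small cell wall protein, followed. Its signal was 3472, 5107 and 6682 in shoots and 9.27, 14.2 and 190 in roots, a difference of 7.08 ± 0.21 (adjusted p = 6.3e-16). The highest root value belonged to 1 h replicate 2, while the other 11 root arrays read 30.2 or less, and no root array came near a shoot array. The other named genes among the 12 leading ones work in photosynthesis, in photorespiration or in the thylakoid. PRK, the phosphoribulokinase that regenerates the substrate of Rubisco, had signals of 3746, 4270 and 4993 in shoots and 20.5, 32.8 and 40.5 in roots. SBPASE, the sedoheptulose-bisphosphatase of the same cycle, had signals of 2228, 3038 and 3593 in shoots and 19.9, 23.8 and 28.7 in roots. Their differences were 6.49 ± 0.07 and 6.24 ± 0.06, with adjusted p of 9.3e-22 and 1.2e-22, and shoot and root arrays were widely apart in both.

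HPR, the peroxisomal hydroxypyruvate reductase of photorespiration, read 3217, 4003 and 5017 in shoots and 28.3, 41.6 and 57.8 in roots. Its difference was 6.08 ± 0.07 (adjusted p = 1.9e-21). The photosystem subunit genes PSAE-1 (photosystem I) and PSBY (photosystem II) differed by 5.79 ± 0.11 and 5.77 ± 0.06, and CaS, a thylakoid calcium-sensing protein, by 5.67 ± 0.08. AT1G09310, AT2G10940 and AT3G05730, which have no symbol in this annotation, completed the 12 with differences of 6.64, 6.48 and 5.68. The antenna gene LHCB4.2 stood between HPR and PSAE-1 and had its lowest shoot signal, 1309 against a median of 5217, among the 12 h arrays, where its difference was 5.02 against 5.89 to 6.49 at the other times.

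In favour of roots, the leading gene was OSM34, an osmotin-like protein of the thaumatin family that is secreted in defence and osmotic stress. Its signal was 1720, 2245 and 2937 in roots and 1.01, 6.87 and 37.2 in shoots. The difference was -6.57 ± 0.08, a 94.9-fold change (adjusted p = 2.2e-21), and the organs did not overlap. AT4G15390 and AT4G30170, which carry no symbol here, followed at -6.55 ± 0.06 and -6.04 ± 0.08. The shoot arrays read at most 4.84 and 11.1 for them, against at least 1194 and 991 in roots. AT3G13610, annotated as F6'H1, the feruloyl-CoA hydroxylase that roots need to make coumarins such as scopoletin, differed by -5.83 ± 0.07. The other 8 of the 12 leading root genes, from AT5G01870 at -5.79 to AT1G18980 at -5.46, have a locus tag but no name in this annotation.

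**Figure D1:**
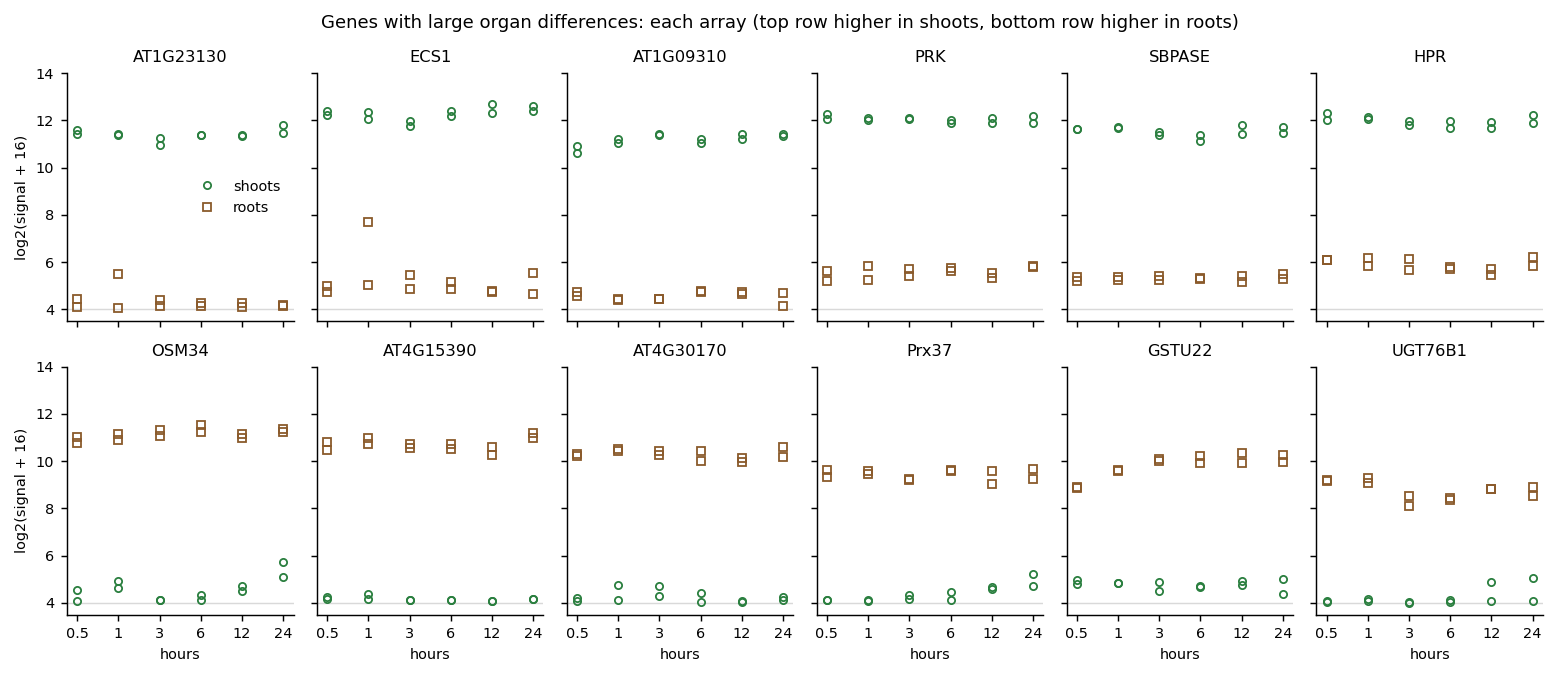
Signals on the log2(signal + 16) scale in each of the 24 arrays, by hour, for 6 genes higher in shoots (top) and 6 higher in roots (bottom, the last 3 taken from the gene lists for having a symbol). Circles are shoots and squares are roots, and the grey line marks a signal of 0. Shoot and root arrays do not overlap in any panel, and 1 root array at 1 h stands above the other roots for AT1G23130 and ECS1.

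The summed signal of the 12 leading root genes was 13673 to 18140 in the root arrays. In the shoot arrays it was 61.3 to 120 in 10 of them, and 97.2 and 193 in 12 h replicate 1 and 24 h replicate 2. The 12 leading shoot genes summed to 31315 to 46494 in shoots and to 264 to 628 in roots. Root tissue in the shoot samples, or shoot tissue in the root samples, was not tested beyond these sums.

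Among root genes with a symbol, several were found only by looking further down the ranking, after the values were seen. LTI30, a dehydrin of cold and drought responses, read 515, 1144 and 1510 in roots and 11.7, 18.5 and 44.2 in shoots (-4.83 ± 0.05). FACT, which joins caffeic acid to fatty alcohols in root waxes, differed by -3.80 ± 0.07. DI21, a drought-induced gene, and ATC, a relative of the flowering repressor TFL1, differed by -3.66 ± 0.07 and -3.43 ± 0.06.

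Photosynthesis genes stood on the side of shoots. The list of nuclear genes of the light reactions held 8 genes and missed PSB27 of photosystem II, which has a value. All 8 were higher in shoots by at least 4-fold (background 4.59%). They lay between 4.01 for LHCB4.3 and 6.01 for LHCB4.2, with a median of 5.22 against -0.10 over all genes. Among them were PSAN of photosystem I (5.52 ± 0.07), PSBW of photosystem II (4.86 ± 0.09) and ATPC1, the gamma subunit of the chloroplast ATP synthase (4.93 ± 0.06). The 3 Calvin cycle genes of the list were PRK, SBPASE and RCA, and the Rubisco activase RCA differed by 5.32 ± 0.08. The 69 genes of the plastid genome, all higher in shoots, had a median difference of 2.94 and a range of 0.77 to 4.93, led by ndhJ and psaA at 4.93 ± 0.08 and 4.69 ± 0.10. A further list of 20 nuclear genes holds mainly genes of the chloroplast NDH complex, of photosystem assembly and of the editing of plastid transcripts. All 20 passed in the direction of shoots, 8 of them by at least 4-fold. Their sizes spread widely. The NDH subunit genes NdhL, NdhN and NdhS differed by 5.15 ± 0.06, 4.71 ± 0.06 and 4.27 ± 0.07. The RNA editing factors in the same list spread from 0.09 for OTP80 and 0.16 for OTP81 to 2.41 for CRR21. HCF101, which assembles iron-sulfur clusters for photosystem I, differed by 3.61 ± 0.06.

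Pigment synthesis followed the same direction with exceptions. Of 13 measured genes of chlorophyll and carotenoid synthesis, 10 were higher in shoots (background 26.0%), 1 was higher in roots (background 47.4%) and 2 did not pass, with a median of 2.0. CHLM, the methyltransferase of the magnesium branch, read 1105, 1779 and 2284 in shoots and 53.9, 82.2 and 103 in roots, a difference of 4.18 ± 0.06 (adjusted p = 1e-20). CHLI2, a magnesium chelatase subunit, differed by 3.76 ± 0.06 and HEME2, an uroporphyrinogen decarboxylase, by 3.19 ± 0.04. The 3 exceptions act at first steps that chlorophyll and haem synthesis share, but 2 other genes of those steps passed higher in shoots. HEMB1 read 618, 790.3 and 937 in shoots and 165, 183 and 197 in roots, and GSA1 read 335, 438 and 526 in shoots and 128, 152 and 172 in roots. HEMA2, a glutamyl-tRNA reductase, read 41.2, 54.6 and 82.8 in shoots and 54.7, 71.0 and 83.9 in roots (-0.26 ± 0.05, adjusted p = 0.00027), with overlapping arrays. HEMA3 and hemb2 did not pass.

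Carbon metabolism split between the organs. Of 7 measured genes of starch and sucrose metabolism, 5 were higher in shoots and 1 in roots (background 26.0% and 47.4%). ATSPS4F, a sucrose-phosphate synthase, read 270, 444 and 1250 in shoots and 9.53, 14.7 and 24.8 in roots (4.11 ± 0.06, adjusted p = 3.8e-20). SBE2.2, a starch branching enzyme, differed by 2.60 ± 0.05. The root-side gene was cwINV6, named as a cell wall invertase and known to cleave fructans, with 385, 595 and 1105 in roots and 14.2, 19.2 and 29.6 in shoots. Its difference was -4.10 ± 0.05 (adjusted p = 4.5e-21).

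Sugar carriers leaned to shoots. Of 21 measured sugar transporter genes, 13 were higher in shoots (background 26.0%), 3 in roots and 5 did not pass, with a median of 0.21. SWEET11, which exports sucrose towards the phloem of leaves, read 562, 838 and 1091 in shoots and 7.47, 16.7 and 35.6 in roots (4.65 ± 0.08, adjusted p = 2.2e-19). It was the only one of the 21 listed sugar carriers past 4-fold. SWEET1, a glucose uniporter, and SFP2 differed by 1.93 ± 0.05 and 1.33 ± 0.06. On the root side were the vacuolar carriers TMT1 at -1.53 ± 0.06 and SWEET16 at -0.86 ± 0.07. TMT1 read 76.4, 97.9 and 314 in shoots and 297, 377 and 534 in roots, so its organs touched.

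Carriers of mineral ions and of nitrate-family substrates were found on both sides. Of 31, 11 were higher in shoots and 10 in roots (background 26.0% and 47.4%), and 10 did not pass. Their median was -0.01 against -0.095 over all genes. It turned to 0.07 after quantile normalization and to 0.20 after median centring. AT3G21670, annotated as NPF6.4 of the nitrate and peptide transporter family, read 300, 758 and 1218 in shoots and 11.9, 21.2 and 40.4 in roots (4.25 ± 0.08, adjusted p = 1.3e-18). CHX20, a potassium and proton exchanger of guard cells, differed by 2.53 ± 0.06. Its relative CHX16 went the other way at -2.34 ± 0.07. GTR1 and GTR2 both import glucosinolates into cells, the sulfur-rich defence compounds of the cabbage family. GTR2 was higher in roots by -1.35 ± 0.05, with 265, 420 and 689 there and 117, 155 and 182 in shoots. GTR1 averaged 0.57 ± 0.06, and its difference ran from -0.98 at 0.5 h to 1.85 at 12 h.

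Cell wall genes were found on both sides. Of 36 measured genes of cellulose and matrix synthesis, most of them TBL genes whose family acetylates wall polymers, 12 were higher in shoots and 18 in roots, shares near the background of 26.0% and 47.4%. After quantile normalization these counts were 15 and 14. TBL36 read 481, 552 and 629 in roots and 23.5, 38.8 and 56.0 in shoots (-3.40 ± 0.09, adjusted p = 2.4e-16), and TBL39 and TBL38 differed by -2.53 ± 0.07 and -2.37 ± 0.08. TBL45 and TBL26 went the other way at 2.46 ± 0.08 and 2.14 ± 0.06. Each organ thus had its own members of this family at high signal.

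Of 49 genes of wall loosening and pectin modification, 12 were higher in shoots and 26 in roots (background 47.4%), with 1 and 6 of them past 4-fold and a median of -0.22. Expansins loosen walls without cutting them. EXPA8 read 68.5, 403 and 1211 in shoots and 13.5, 24.6 and 36.3 in roots (3.55 ± 0.14, adjusted p = 3.2e-14). EXPA4 read 329, 466 and 570 in roots and 36.1, 68.7 and 83.8 in shoots (-2.55 ± 0.07). In both the arrays of the organs were apart. Among enzymes that cut and rejoin xyloglucan, XTH32 and EXGT-A3 were higher in shoots by 1.98 ± 0.05 and 1.62 ± 0.06. XTH18 and XTH19, which lie next to each other on chromosome 4, were higher in roots by -2.76 ± 0.10 and -2.56 ± 0.10. GH9B13, an endoglucanase-family gene, was higher in roots by -2.76 ± 0.16. EXPA7 and EXPA18, which act in root hairs, passed in the direction of roots with smaller sizes of -1.08 ± 0.08 and -0.99 ± 0.08.

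Class III peroxidases crosslink wall polymers with hydrogen peroxide, and 7 were listed. None of these 7 was higher in shoots, 5 were higher in roots (background 47.4%) and 2 did not pass, with a median of -1.68. Members that the annotation does not name as peroxidases are outside the list. Prx37 read 514, 719 and 786 in roots and 0.94, 2.77 and 21.3 in shoots (-5.05 ± 0.07, adjusted p = 2.9e-20). AT5G66390, annotated as PRX72, a peroxidase of lignification, differed by -4.36 ± 0.04, and AT2G41480, annotated as PRX25, by -3.27 ± 0.06. The reductase CCR2, which makes lignin precursors under stress and attack, read 85.4, 138 and 232 in roots and 0.869, 5.62 and 11.7 in shoots (-2.83 ± 0.08). HCT, the hydroxycinnamoyl transferase of general lignin synthesis, had 541, 872 and 1136 in shoots and 533, 715 and 812 in roots. Its difference of 0.20 ± 0.04 lay within overlapping arrays and did not pass after quantile normalization. On the surface of the shoot, AT4G13840, annotated as CER26, which helps lengthen wax precursors of the leaf cuticle, read 184, 383 and 449 against 8.95, 14.6 and 21.6 in roots (3.53 ± 0.06). The second cuticle gene of the list, the wax ester synthase WSD1, differed by 1.60 ± 0.14.

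**Figure D2:**
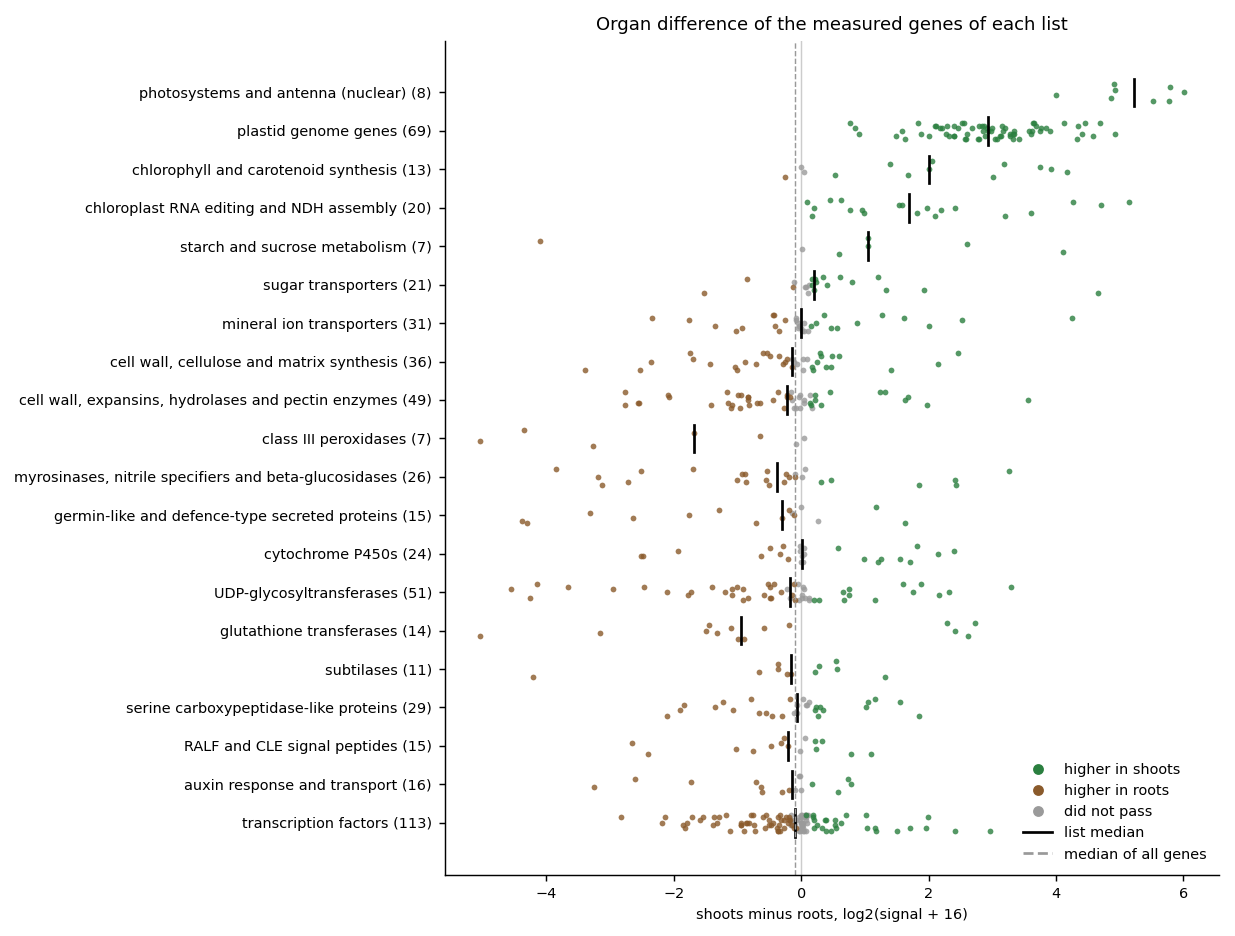
Difference between shoots and roots on the log2(signal + 16) scale for each measured gene of 20 lists, with the number of genes in brackets. Green points passed higher in shoots, brown points higher in roots, grey points did not pass, black bars are list medians and the dashed line is the median of all genes at -0.10. The 4 chloroplast lists at the top lie to the right of 0 apart from the pigment genes HEMA2 and HEMA3, while most other lists hold members on both sides.

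Secondary metabolism and detoxification used different members of the same families in each organ. Of 14 glutathione transferases, which attach glutathione to foreign or reactive compounds, 4 were higher in shoots and 10 in roots (background 26.0% and 47.4%), and none failed the test. The 4 shoot genes, GSTL3, GSTU18, GSTU20 and GSTU16, all passed 4-fold, at 2.73 ± 0.04, 2.62 ± 0.06, 2.41 ± 0.10 and 2.29 ± 0.06. GSTU20 belongs to the co-expressed set of aliphatic glucosinolate synthesis. On the root side GSTU22 read 452, 979 and 1286 in roots and 4.88, 11.8 and 15.8 in shoots (-5.04 ± 0.07, adjusted p = 2.1e-20), and GSTU25 differed by -3.16 ± 0.18. GSTU22 and GSTU20 stand in a run of neighbouring GSTU genes on chromosome 1, of which GSTU21, GSTU22 and GSTU23 were higher in roots.

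UDP-glycosyltransferases attach sugars to hormones, flavonoids and other small molecules. Of 51, 13 were higher in shoots and 27 in roots (background 47.4%), with 3 and 7 past 4-fold, and the counts became 24 and 23 under median centring. UGT76B1, which inactivates the immune signals isoleucic acid and salicylic acid, read 254, 437 and 600 in roots and 0.138, 0.649 and 17.4 in shoots (-4.55 ± 0.11, adjusted p = 1.8e-17). UGT72E2, which glucosylates monolignols, differed by -4.25 ± 0.08, and UGT73B4 by -4.14 ± 0.08. UGT88A1 was the leading shoot member with 413, 994 and 1421 in shoots and 47.0, 76.4 and 120 in roots (3.29 ± 0.06). UGT78D1, which adds rhamnose to flavonols, was higher in shoots by 2.16 ± 0.08. Among the other flavonoid genes CHIL was higher in roots by -0.91 ± 0.07, and UGT78D2, a flavonoid glucosyltransferase, differed by 0.02 ± 0.05 with an adjusted p of 0.73.

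The cytochrome P450 list holds 24 genes, mostly of the CYP71B family. Of these, 9 were higher in shoots and 8 in roots (background 26.0% and 47.4%), with a median of 0.02 against -0.095 over all genes. Of the 24, 11 stand in a run on chromosome 3 with at most 4 other protein-coding genes between neighbours. In that run 6 were higher in shoots, 2 in roots and 3 did not pass. CYP71B23 read 137, 282 and 354 in roots and 13.1, 25.7 and 87.4 in shoots (-2.52 ± 0.10). CYP71B24, with 1 gene between them, read 43.1, 81.4 and 234 in shoots and 5.59, 10.7 and 14.9 in roots (2.14 ± 0.09). At the other end CYP71B34, CYP71B35 and CYP71B36 follow each other directly and were higher in shoots by 1.82 ± 0.04, 1.71 ± 0.08 and 1.26 ± 0.06. The next gene, CYP71B37, was higher in roots by -2.48 ± 0.05. Opposite directions thus stood side by side within this run.

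**Figure D3:**
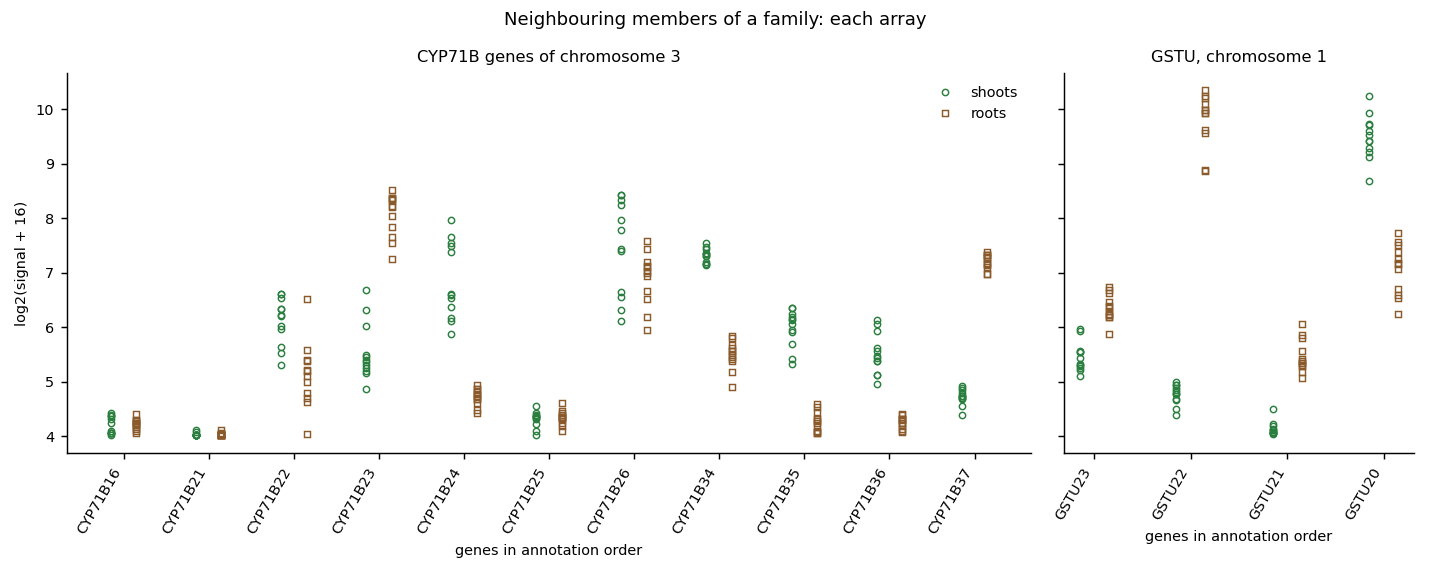
Signals on the log2(signal + 16) scale in each of the 24 arrays for 11 CYP71B genes of chromosome 3 and 4 GSTU genes of chromosome 1, ordered as in the annotation. Circles are shoots and squares are roots. CYP71B23 and CYP71B37 are high in roots beside neighbours that are high in shoots, and GSTU20 is high in shoots beside 3 GSTU genes that are higher in roots.

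Adjacent genes were also counted over the genome. Of 5818 pairs of directly adjacent protein-coding genes with both members measured, 70 had both members past 4-fold. Both were higher in shoots in 21 of these pairs, both were higher in roots in 28, and the organs were opposite in 21. Multiplying the shares of all genes past 4-fold gives 12.3, 8.1 and 20.0 such pairs, so the opposite pairs were near what those shares give. An example of the last kind is CHLM of chlorophyll synthesis at 4.18, whose neighbour AT4G25090 was at -2.98. PORB, the protochlorophyllide reductase, at 3.92 had the neighbour AT4G27450 at -2.08. Both values average over strong movement with time. The time means ranged over 4.01 in shoots and 0.65 in roots for PORB, and over 4.61 and 0.56 for AT4G27450.

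Defence genes were found on both sides. Of 26 beta-glucosidase and jacalin genes, 6 were higher in shoots and 17 in roots (background 26.0% and 47.4%), with a median of -0.38. The list was also meant to hold nitrile specifiers and myrosinases, which release toxic products from glucosinolates. No gene named as either is among the 26. The jacalin genes JAL33 and JAL34, adjacent on chromosome 3, read 831, 1413 and 1791 and 1868, 2452 and 3034 in roots, against at most 105 and 380 in shoots. Their differences were -3.85 ± 0.08 and -3.12 ± 0.09. BGLU46, a glucosidase that acts on monolignol glucosides, differed by -3.20 ± 0.08. PYK10, the main glucosidase of root endoplasmic reticulum bodies, read 2937, 3323 and 3681 in roots and 362, 579 and 798 in shoots (-2.51 ± 0.06). On the shoot side BGLU33, BGLU40 and BGLU44 differed by 3.27 ± 0.06, 2.43 ± 0.05 and 2.42 ± 0.07.

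Of 15 secreted defence-type proteins, 2 were higher in shoots and 10 in roots (background 26.0% and 47.4%). CHI, a chitinase-family gene, read 273, 534 and 876 in roots and 0.92, 9.76 and 34.5 in shoots (-4.38 ± 0.12, adjusted p = 2.9e-16). The defensins PDF2.5 and PDF2.1 differed by -4.30 ± 0.08 and -3.32 ± 0.08. The jasmonate-responsive defensin PDF1.2 went the other way at 1.17 ± 0.16, with 18.2, 35.2 and 221 in shoots and 5.90, 9.89 and 14.9 in roots. TPS-CIN, a cineole synthase of roots, differed by -3.48 ± 0.11. Near-identical members of such families may share probes, and the value of a single copy is then uncertain.

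Proteases and peptides held a few strong root genes among small differences. All 11 listed subtilases passed, 5 higher in shoots and 6 in roots (background 26.0% and 47.4%), with a median that turned to 0.04 under median centring. Only SBT4.12 of these exceeded 4-fold, at -4.20 ± 0.08. It read 285, 406 and 684 in roots and 0.921, 6.95 and 15.2 in shoots. Of 29 serine carboxypeptidase-like genes, 10 were higher in shoots and 12 in roots (background 26.0% and 47.4%), which became 13 and 10 after quantile normalization. They were led by scpl42 at 1.85 ± 0.05 in shoots and by scpl31 at -2.11 ± 0.09 in roots. Among 15 RALF and CLE genes, which encode small signal peptides of growth and meristem control, RALFL32 and RALFL27 differed by -2.65 ± 0.06 and -2.41 ± 0.07 and RALFL34 by 1.1 ± 0.07. Of these peptide genes, 5 were higher in shoots and 8 in roots, with shares near the background of 26.0% and 47.4%. Under median centring these counts were 7 and 6. That scaling also moved the calls over all probe sets, from 6284 in shoots and 11182 in roots to 10730 and 8231.

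Among hormone genes, the GH3 enzymes, which join auxin to amino acids and so inactivate it, had the largest differences. GH3.17 read 201, 388 and 698 in roots and 11.4, 25.7 and 76.9 in shoots (-3.25 ± 0.08, adjusted p = 3.9e-17). GH3.3 and WES1, which is GH3.5, differed by -2.61 ± 0.12 and -1.73 ± 0.07. GH3.9 went the other way at 0.57 ± 0.06. YUC2 and YUC6 encode enzymes of auxin synthesis, and YUC2 was higher in shoots by 0.78 ± 0.06 while YUC6 was higher in roots by -0.62 ± 0.09. Of the 16 auxin genes, 4 were higher in shoots and 8 in roots, again near the background of 26.0% and 47.4%. Under median centring, where the calls over all probe sets also moved towards shoots, these counts were 7 and 6. The largest difference among 6 cytokinin genes was that of RR16, a response regulator, at 1.08 ± 0.06.

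Ubiquitin and vesicle genes leaned to roots by small amounts. Of 25 ubiquitin-conjugating enzymes and ubiquitin proteases, 3 were higher in shoots and 21 in roots (background 47.4%), with a median of -0.37, and 16 stayed higher in roots under median centring with a median of -0.17. The largest was UBC30 at -1.27 ± 0.05. Of 26 SEC and VPS genes, which move vesicles, 4 were higher in shoots and 17 in roots (background 26.0% and 47.4%) with a median of -0.33. Under median centring these counts were 8 and 12. Of 8 calmodulin-like genes, which sense calcium, 6 were higher in roots under each scaling (background 47.4% as deposited), led by CML43 at -2.68 ± 0.09. Among 15 tetraspanins, membrane proteins of the plant cell surface, 3 were higher in shoots and 8 in roots, near the background of 26.0% and 47.4%. Under median centring 7 were higher in each organ. TET2 and TET6 led the tetraspanins at -2.63 ± 0.04 and -2.04 ± 0.04. Of 7 tubulin genes 3 were higher in each organ (background 26.0% in shoots and 47.4% in roots). Their median of 0.05 turned to -0.23 after quantile normalization, and TUB1 differed by -1.61 ± 0.09.

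Large differences were few among the listed transcription factor genes. Of 113, 26 were higher in shoots (background 26.0%), 51 were higher in roots (background 47.4%) and 36 did not pass, which became 38 and 43 higher after quantile normalization. Only 2 and 3 were past 4-fold, against 4.59% and 3.74% of all genes. The shares of calls as deposited lay near the background, so they set these 113 genes apart in neither direction. MADS genes made up 41 of the 113 and 23 of the 36 that did not pass. Only 7 WRKY, 3 MYB and 1 NAC gene were in the list, so it does not stand for all transcription factors.

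The shoot side was led by the MADS-box gene AGL87, which read 99.6, 118 and 143 in shoots and 0.356, 0.627 and 2.94 in roots (2.96 ± 0.04, adjusted p = 4.2e-20). AGL24, a promoter of flowering, read 51.8, 75.5 and 101 in shoots and 0.487, 1.39 and 3.00 in roots (2.41 ± 0.04, adjusted p = 1.2e-19). Neither gene gave more than 3.00 on any root array. The YABBY genes YAB3 and YAB5, which mark the lower side of leaves, differed by 1.99 ± 0.07 and 1.96 ± 0.05. FMA and SPCH, the bHLH factors at the end and the start of stomatal development, differed by 1.71 ± 0.05 and 1.04 ± 0.07. TRY, which restrains trichome formation, and TCP15, a regulator of leaf growth, differed by 1.51 ± 0.07 and 1.15 ± 0.07, and SNZ, an AP2-type repressor of flowering, by 1.18 ± 0.07. The shoot meristem gene CLV3 read at most 3.07 in shoots and 5.03 in roots (-0.02 ± 0.04, adjusted p = 0.60).

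On the root side WRKY6, a regulator of senescence and phosphate responses, read 149, 184 and 265 in roots and 3.99, 13.7 and 24.1 in shoots (-2.84 ± 0.09, adjusted p = 1e-15). STZ, a zinc finger repressor of stress responses, averaged -2.18 ± 0.18 but overlapped, with 191, 323 and 471 in roots and 13.3, 57.9 and 344 in shoots. AGL42 and AGL21 led the MADS genes of roots at -2.13 ± 0.07 and -1.71 ± 0.04, and AGL21, which promotes lateral roots, stayed under 1 in signal on every shoot array. The AP2/ERF gene tny and the MYB-related gene MYBC1 differed by -1.83 ± 0.06 and -1.58 ± 0.06. Regulators of the root meristem and of lateral roots followed with smaller sizes. BBM, also called PLETHORA4, read 18.4, 26.2 and 38.0 in roots and 0.556, 1.42 and 4.08 in shoots (-1.30 ± 0.04, adjusted p = 6.8e-15). LBD29 and LBD16, which start lateral roots under auxin, differed by -1.39 ± 0.07 and -0.90 ± 0.06. JKD, which patterns the ground tissue, and PUCHI, which shapes lateral root primordia, differed by -1.11 ± 0.11 and -0.76 ± 0.05. The arrays of the organs did not overlap in BBM, LBD29, LBD16, JKD and PUCHI.

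Families were mixed inside. Of 41 MADS genes, 23 did not pass, and 6 were higher in shoots and 12 in roots, shares under the background of 26.0% and 47.4%. After quantile normalization these counts were 12 and 9. Of 23 bZIP and GLK genes, 17 were higher in roots (background 47.4%), among them bZIP44 at -1.86 ± 0.05, EEL at -1.54 ± 0.04 and BZIP53 at -1.32 ± 0.06. The iron-deficiency regulators bHLH115 and bHLH104 were higher in roots by -1.79 ± 0.05 and -0.87 ± 0.04, and bHLH121 of the same network was higher in shoots by 0.70 ± 0.06.

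**Figure D4:**
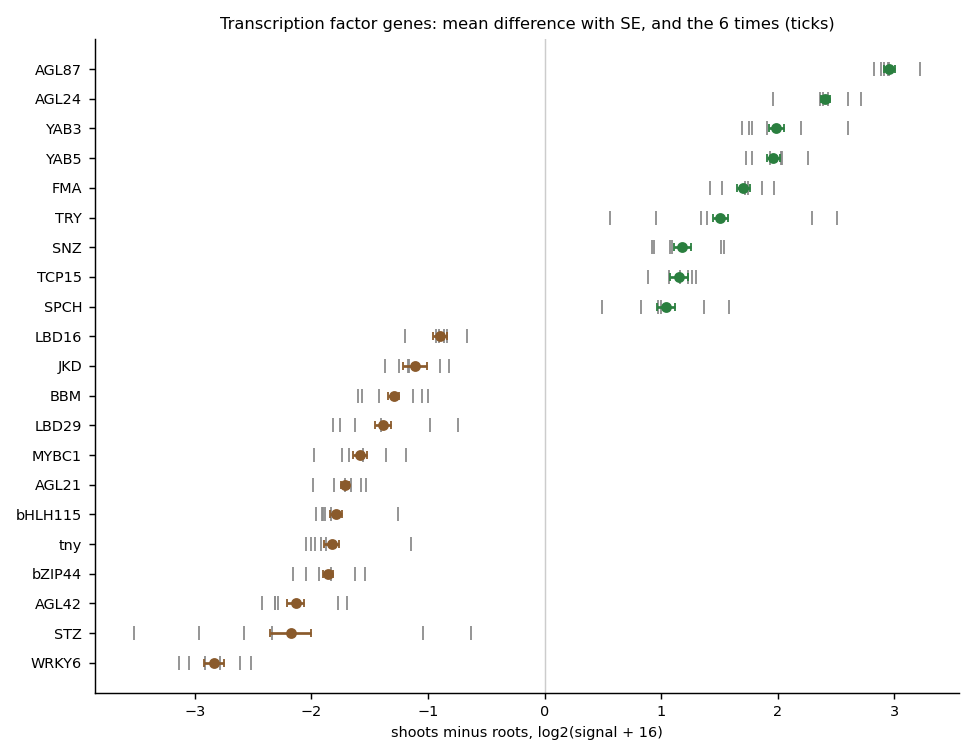
Difference between shoots and roots for 21 transcription factor genes on the log2(signal + 16) scale. Points are means over the 6 times with the SE of the fit, green where higher in shoots and brown where higher in roots, and grey ticks are the differences at each time. AGL87 is within 2.83 to 3.22 at all times, while STZ runs from -3.52 to -0.63.

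Some organ differences were the same at every time. A difference was counted as stable where it was at least 4-fold at each of the 6 times and its range over the times was at most 0.5 on the log2 scale. Of 758 genes that were at least 4-fold apart at every time in either direction, 119 higher in shoots (0.896% of all genes) and 50 higher in roots (0.376%) met this. The root count depended on the constant, since 107 probe sets met it with 16 but 48 with 1 and 54 with 64. Just inside the limit lay NdhL and AT3G26770, at ranges of 0.498 and 0.499, and just outside it psbF and AT1G12800, both at 0.502. HPR was the steadiest of the leading genes, between 6.01 and 6.21. SBPASE stayed between 5.96 and 6.41, LIL3:1, a light-harvesting-like protein that holds chlorophyll synthesis enzymes in the membrane, between 4.87 and 5.19, and NdhL between 4.94 and 5.44. CHLM was stable between 4.08 and 4.38 and HCF101 between 3.49 and 3.71. Of the 119 shoot genes, 6 were plastid-encoded. Among the smaller stable differences, chosen for having a symbol after the values were seen, were chloroplast thioredoxin-type genes. The thioredoxin reductase NTRC was between 2.69 and 3.12, and the thioredoxins THX and ty2 were between 2.82 and 3.29 and between 2.52 and 2.99. FUG1, a chloroplast translation initiation factor, was between 3.26 and 3.74.

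Only 7 of the 50 stable root genes have a symbol. These were ARPN, named as a plantacyanin (-3.48), TPS-CIN (-3.48), XTH18 (-2.76), RALFL32 (-2.65), the tetraspanin TET2 (-2.63), RALFL27 (-2.41) and LigB (-2.28). The largest stable root differences belonged to loci without a name. AT4G30170 stayed between -6.21 and -5.86, AT5G64100 between -5.79 and -5.30, and AT1G51830 between -5.01 and -4.78. AT1G51830 read 396, 490 and 568 in roots and never more than 0.971 in shoots. AGL87 was the only stable one of the 113 transcription factor genes.

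Other organ differences moved with time. The test of the organ by time interaction, from the same limma fit with Benjamini-Hochberg adjustment, called 2984 genes (22.5%). Among genes at least 4-fold apart it called 275 of 610 higher in shoots (45.1%) and 197 of 497 higher in roots (39.6%), while 1 of the 119 stable shoot genes and none of the 50 stable root genes were called (at an adjusted p under 0.05), which the range limit favours. Together 472 genes (3.55% of those measured) were at least 4-fold apart and called. Time here holds hours since the drugs together with the hour of the day, and the 2 cannot be told apart. The movement lay more often in the shoot. Over all genes, the 6 time means spread more widely in shoots than in roots for 67.6%, over the genes called in the interaction test for 76.9% (2294 of 2984), and over the 236 called genes whose difference ranged by at least 2 for 85.2% (201 of 236). In those 236 genes the median range over the times was 2.49 in shoots and 0.72 in roots.

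**Figure D5:**
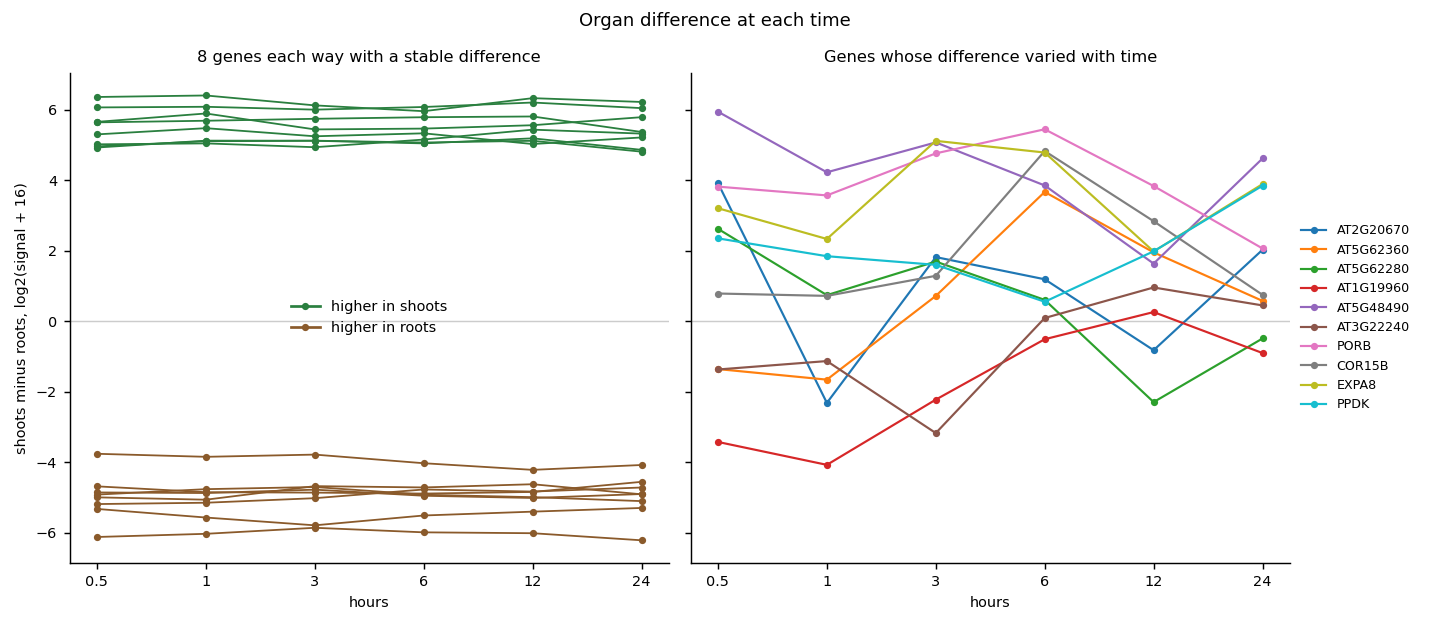
Difference between shoots and roots at each hour on the log2(signal + 16) scale. On the left are the 8 largest stable differences each way, and on the right the 6 genes of widest range with 4 named genes, PORB, COR15B, EXPA8 and PPDK. The stable genes run flat, and AT2G20670, AT5G62360, AT5G62280, AT1G19960 and AT3G22240 cross 0.

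Several genes with a symbol, picked after their values were seen, changed steeply with time. PORB, which turns protochlorophyllide into chlorophyllide in the light, differed by 3.82 at 0.5 h, 5.45 at 6 h and 2.07 at 24 h. Its shoot signal ran from 178 to 3513 and its root signal only from 27.2 to 64.6. COR15B, a chloroplast protein of cold acclimation, differed by 0.79 at 0.5 h, 4.83 at 6 h and 0.75 at 24 h. PPDK, the pyruvate phosphate dikinase, was lowest at 6 h with 0.55 and highest at 24 h with 3.85. EXPA8 peaked at 3 h with 5.12 and was lowest at 12 h with 1.98. SAG29, a sugar carrier also called SWEET15 that rises in ageing leaves, differed by -0.33 at 12 h and by 3.02 at 24 h. In each of these 5 genes the time means ranged over at least 2.94 in shoots and at most 0.65 in roots. The reverse was seen for OCT1, a carnitine-transporter-family gene, whose time means ranged over 2.93 in roots and 0.03 in shoots, and for the defensin PDF2.1, with 2.66 in roots and 0.25 in shoots. A small range in an organ where a gene is dim does not show that its transcript was steady there.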

How the data were processed

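RNA of 12 shoot and 12 root samples was hybridised to Affymetrix arrays, and the values analysed are the deposited table of the series, 22810 probe sets by 24 arrays. They are deposited intensities on a linear scale, and the submitters' processing notes name MAS5 as the method. The genome build is not given in the sources used here. Trimmed means (2% left out at each end) were 99.2 to 99.4 on the 24 arrays, so the deposited intensities share a common scale. No depth exists for arrays, and their number limits the precision.

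From the deposited intensities, 64 control probe sets were removed, 16 was added and log2 was taken. A model with a mean for each organ at each time was fitted with limma 3.58.1 in R 4.3.3, with an intensity trend in the empirical Bayes step (12 residual and 4.91 prior degrees of freedom). The organ difference is the mean of the 6 differences, and the interaction is the F test that the 6 are equal. P-values were adjusted over all 22746 probe sets by Benjamini-Hochberg, at 0.05. A gene with several probe sets (144 genes) took the one with the highest mean signal. The 503 probe sets listed with several genes and the 8730 not listed in the annotation entered the fit but were not named. Names come from GEO's platform annotation matched to RefSeq TAIR10.1. No protein or promoter sequences were used here.

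The genes named were taken from the 12 largest differences each way with the organs apart at every time, up to 4 passing members each way of every list, the 8 largest stable differences each way, the 6 widest ranges and the 6 strongest sign changes among interaction calls, all measured markers and the 8 largest transcription factors each way. Further genes were named after their values were seen. The genes, lists and tests were chosen with earlier results of these data known. Part of the lists was written after the annotation had been seen, and false matches of symbols were removed. Lists with no measured gene are not described.

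On simulated arrays with known changes, the organ test recovered 32%, 98%, 100% and 100% of genes changed by 0.2, 0.5, 1 and 2 on the log2 scale, and the interaction test 4%, 54% and 94% at 0.5, 1 and 2. Alternatives covered the pseudocount, the scaling, dim probe sets, the variance trend, the replicate block, the times and each array left out. Values were handled with Python 3.11, pandas and matplotlib.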

Additional observations from a re-analysis of the deposited data

Results flagged for a closer look

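The organ difference itself differed between the times for 2984 genes in limma's test of the organ by time interaction with Benjamini-Hochberg adjustment, and the genes below are those of widest range and of strongest change of sign among them. The annotation used here gives no symbol for any of them. For each, the range is the highest minus the lowest of the 6 shoot minus root differences on the log2(signal + 16) scale, each from 2 arrays an organ.

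AT2G20670 had the widest range, 6.24, from 3.92 at 0.5 h to -2.32 at 1 h. AT5G62360 ranged over 5.33, from -1.66 at 1 h to 3.67 at 6 h, and AT5G62280 over 4.92, from 2.62 at 0.5 h to -2.29 at 12 h. AT1G19960 was higher in roots at 5 of 6 times and ranged over 4.34, from -4.07 at 1 h to 0.26 at 12 h. AT5G48490 was higher in shoots throughout, with a range of 4.31 between 1.64 at 12 h and 5.95 at 0.5 h. AT3G22240 ranged over 4.13, from -3.17 at 3 h to 0.96 at 12 h.

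The neighbouring loci AT4G30650 and AT4G30660 were higher in roots at 0.5, 1 and 24 h and higher in shoots at 6 and 12 h, with ranges of 3.53 and 3.33. At 6 h their differences were 1.67 and 1.83. AT5G54130 ranged over 3.12, from -1.58 at 6 h to 1.54 at 1 h. Its average over the times, 0.09 ± 0.07 (adjusted p = 0.21), did not pass, while a second probe set of the gene passed higher in shoots at 0.40 ± 0.07 with a range of 3.02.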

How the results depend on the processing

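The count of probe sets that differed between the organs, 17466, was 10189 without the dimmest 50% of probe sets, where fewer were tested, with 3703 higher in shoots and 6486 in roots. The 6284 higher in shoots became 10730 under median centring. The 1253 probe sets at least 4-fold higher in shoots became 1773 with a pseudocount of 1 and 698 with 64, and the 988 higher in roots became 2018 and 342, so roots had more with 1 and shoots had more with 16 and 64, and the size limit for dim genes rests on that constant. The 359 stable differences became 83 with a range of at most 0.3 and 1067 with at most 1, and the 107 of them higher in roots became 48 and 54 with pseudocounts of 1 and 64. Leaving out each array in turn gave 17227 to 17494 calls (6147 to 6419 higher in shoots, 11032 to 11231 in roots), 1233 to 1266 and 973 to 996 large differences, 4991 to 6139 interaction calls and 325 to 370 stable differences. The labels do not say whether replicate numbers pair shoot and root samples. At the 6 times the deviations of same-numbered shoot and root arrays correlated at -0.09 to 0.14, above 0 at 3 of them. With 2 arrays a group, such weak values cannot decide whether the samples were paired. With the replicate block, 17366 probe sets differed and the interaction test called 4846 in place of 5899.

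Of the 184 genes named in the text, 169 kept their side of the threshold under each of the 40 settings that gave a value. None of these 169 changed sign where the value as deposited or the altered value passed. Changes of sign where neither passed were not counted. The counted changes of sign, all small as deposited, were HCT at -0.04 after quantile normalization, CLV3 at 0.184, HEMA3 at 0.204 and AT4G30660 at 0.036 under median centring, AT4G30660 at 0.08, 0.096 and 0.061 without 0.5, 1 and 24 h, AT5G54130 at -0.197 without 1 h, and UGT78D2 at -0.165 and -0.158 without 1 and 24 h. The causes were not tested. For a gene that is dim in an organ, the signal there limits the size of its fold.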
